A study of Homo sapiens with 2 samples.

Results

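KIF3C, BICDL1 and CLIP2 are 3 genes of microtubule-based transport that carried peaks in an RNA immunoprecipitation of eIF4A1. They were chosen by their deposited fold and number of peaks, and every peak that the authors' table lists under one of their gene IDs was taken. This gave 10 peaks of 1920, in 3 of the 1540 gene IDs that the table names for a peak outside intergenic sequence. The cells were DU145, an established human prostate cancer line. Cytoplasmic lysate was cleared on beads and shared between a rabbit antibody to eIF4A1 and control rabbit IgG, and each group was 1 library of total RNA from the immunoprecipitate. The labels give no genetic change and no drug treatment for either group, and eIF4A1 was the protein already present in the cells. With 1 library per group no difference has a replicate check, and every fold below is the authors' value for a peak over control, with no test between groups.

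Motor proteins carry cargo along microtubules. Kinesins mostly move toward the plus end of the filament and cytoplasmic dynein toward the minus end, and adaptor proteins link them to vesicles and RNA. KIF3C is a motor subunit of the kinesin-2 family and pairs with KIF3A. BICDL1 (BICDR-1, listed in the deposited table as CCDC64) is a coiled-coil adaptor that recruits dynein and dynactin to RAB6A vesicles. CLIP2 (CLIP-115) binds the growing plus ends of microtubules through its CAP-Gly domains. eIF4A1 is the RNA helicase of the cap-binding complex eIF4F and unwinds structure in mRNA leaders.

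Each peak's fold and −log10 p also yield the number of eIF4A1 reads stacked at its highest base, the summit, and the background that the caller used there. Reads are therefore given with exact 95% Poisson intervals, which cover counting error only, because PCR copies are not independent molecules. The background is the highest of several local rates of control reads, so it sets an upper limit on the control reads near a peak. Over all peaks the median was 3 reads at the summit and a fold of 3.99. Where the background is very low, the fold is close to the reads plus 1. A background as high as 1 control read at the summit was found in 5.89% of all peaks. Of 7 markers that DU145 is known for, only the surface glycoprotein gene CD44 had a peak (3 reads), and KRT8, KRT18, KRT19, EPCAM, CDH1 and VIM had none. Of 5 genes of the androgen axis 0 had one. The exact binomial 95% intervals were 0.361 to 57.9% for the markers and 0 to 52.2% for the androgen axis. Each includes the 6.83% of all protein-coding genes that had a peak. A peak list does not measure expression either, so these counts cannot check the line.

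The 10 peaks of the 3 genes held 68 summit reads in all, from 2 to 13 per peak, with a median of 6 reads and a median fold of 5.56. A fold of at least 5 was found in 8 of 10, against a background of 22.5% of all peaks, and at least 5 reads in 8 of 10, against 26.7%. A −log10 q of at least 5 was reached by 3 of 10, against 26.3% of all peaks. The genes were chosen for such values, so these counts are a description. At 9 of the 10 summits the background was too low to hold a single control read, and the exception lies in CLIP2. The background values correspond to control reads counted over 20 bases each, so a longer control read could cover a summit without being counted there. All 10 summits lie inside the RefSeq span of their gene, against 77.3% of the 1919 annotated peaks. No other RefSeq gene covers any of the 10. Peaks carry no strand in the authors' files.

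**Figure D1:**
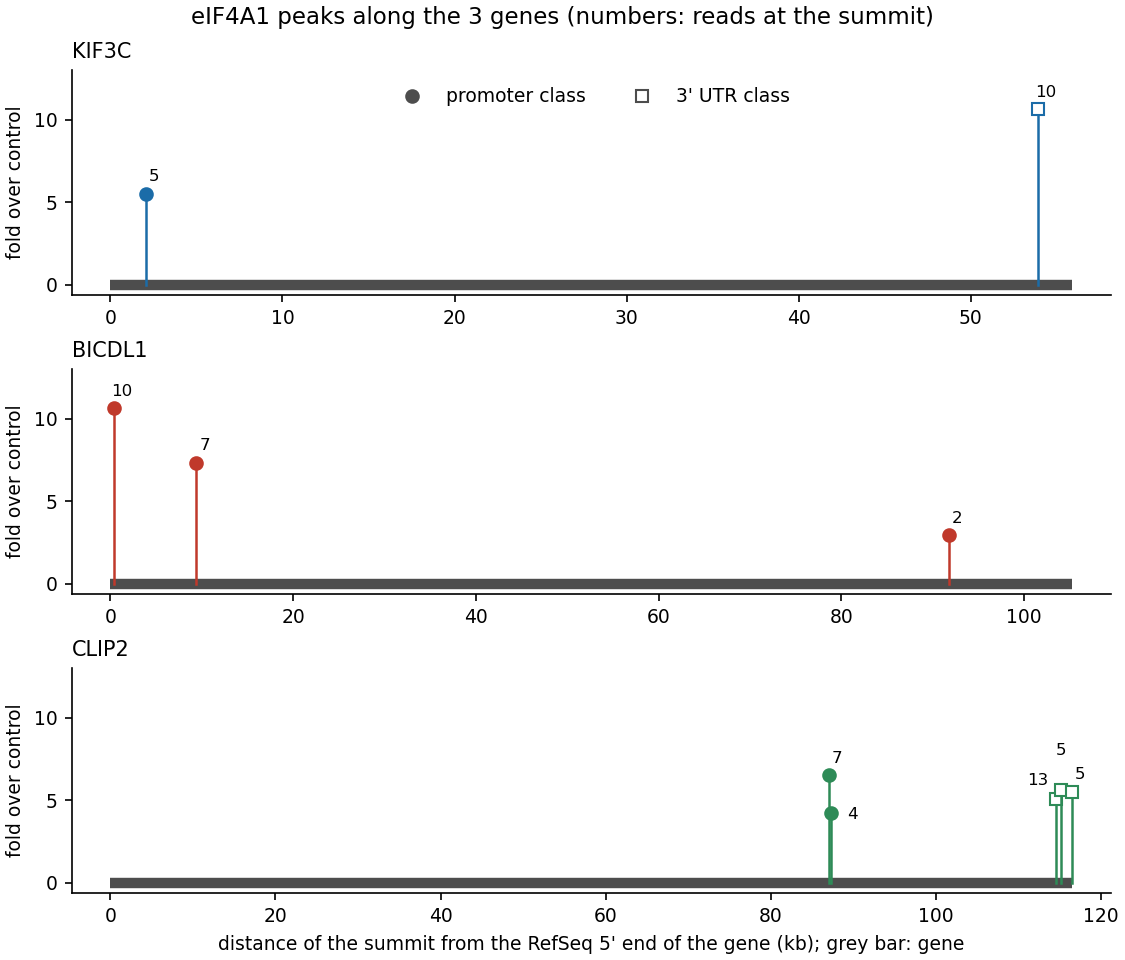
Position and fold of each peak in KIF3C, BICDL1 and CLIP2. The horizontal axis is the distance of the summit from the RefSeq 5' end in kb, the vertical axis the authors' fold over control, filled circles are peaks of the promoter class, open squares peaks of the 3' UTR class, and the numbers are reads at the summit. KIF3C has 1 peak near each end, BICDL1 has its higher peaks toward the 5' end, and all 5 CLIP2 peaks lie at least 87.0 kb from the 5' end.

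KIF3C (chromosome 2, 25926598 to 25982497, minus strand, hg38) had 2 peaks, 1 toward each end of a gene of 55.9 kb. The peak toward the 3' end (25928591 to 25928617, 27 bases) had 10 reads at its summit (interval 4.80 to 18.4), a fold of 10.6 and a −log10 q of 15.5. Its background was 0.0352, which allows at most 2 control reads in the 1 kb around the summit and 0 under it. The authors classed it as 3' UTR, and it lies 2005 bases before the RefSeq 3' end. The peak toward the 5' end (25980435 to 25980744) had 5 reads (interval 1.62 to 11.7), a fold of 5.51 and a −log10 q of 3.84, over a background that allows at most 5 control reads in that window. It was classed as promoter, 176 bases inside an annotated transcript start and 2051 bases from the RefSeq 5' end. The intervals of the 2 peaks overlap, and which end carried more reads was not tested. The peak near the 5' end covers 310 bases, against a median of 27 over all peaks, and was the fourth widest of 1920. Its summit is the 12th base from its left edge in genome coordinates, which on this strand is the edge toward the 3' end.

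BICDL1 (chromosome 12, 119989236 to 120094495, plus strand) had 3 peaks, and its highest lies at the very start of the gene. That peak (119989584 to 119989623, 40 bases) had the same deposited values as the KIF3C 3' peak, a fold of 10.6, a −log10 q of 15.5 and 10 reads (interval 4.80 to 18.4). No further peak shared this fold, and the pair stood in 5th place among all peaks by fold. By reads it was less unusual, since 88 of the 1920 peaks (4.58%) had at least 10. The summit of the BICDL1 peak lies 378 bases downstream of the RefSeq 5' end and 255 bases upstream of the transcript start that the authors' table used. The next peak (119998609 to 119998634), 9012 bases further on, had 7 reads (interval 2.81 to 14.4), a fold of 7.35 and a −log10 q of 6.83. It is classed as promoter through an annotated transcript that spans 702 bases, 1227 bases downstream of the summit. The third (120080947 to 120080985) had 2 reads (interval 0.242 to 7.22), a fold of 2.95 and a −log10 q of 1.54. It stands 2 bases before another annotated transcript start, 91.7 kb into the gene. Among all peaks 371 (19.3%) rested on 2 reads, and 242 had a −log10 q as low as this one or lower. The intervals of neighbouring peaks in this order overlap, and with 1 library the order was not tested.

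CLIP2 (chromosome 7, 74289407 to 74405935, plus strand) had 5 peaks, in 2 groups, and none within 3 kb of its RefSeq 5' end. The upstream group is a pair with summits 291 bases apart, 87.0 kb and 87.3 kb into the gene. The left peak of the pair (74376346 to 74376439) had 7 reads (interval 2.81 to 14.4), a fold of 6.51 and a −log10 q of 4.30. The right one (74376725 to 74376808) had 4 reads (interval 1.09 to 10.2), a fold of 4.25 and a −log10 q of 1.54. Both are in the promoter class because an annotated transcript starts between them, 258 bases after the left summit and 33 bases before the right one. Their backgrounds allow at most 13 and 10 control reads in the 1 kb around the summit, more than at the peaks of KIF3C and BICDL1.

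The downstream group of CLIP2 holds 3 peaks in the 3' UTR class, all within 2 kb of the RefSeq 3' end. The peak at 74403969 to 74404013 had 13 reads (interval 6.92 to 22.2), the most of the 10 peaks. In all, 29 of the 1920 peaks had 13 reads or more. The fold of this CLIP2 peak was 5.07 and its −log10 q 3.15, over a background of 1.76, the value of 2 control reads under the summit. The same background could in principle come from 100 control reads in the surrounding 1 kb, but the next peak, 615 bases away, allows at most 40 in the 10 kb around it. That next peak (74404511 to 74404605) had 5 reads (interval 1.62 to 11.7), a fold of 5.61 and a −log10 q of 4.28, with at most 4 control reads in its 1 kb window. The last (74405910 to 74405929) had 5 reads, a fold of 5.51 and a −log10 q of 3.84, the same values as the KIF3C 5' peak. Its summit is 9 bases before the RefSeq 3' end of CLIP2. CLIP2 thus had the most summit reads of the 3 genes, 34 against 19 in BICDL1 and 15 in KIF3C. None of its 5 peaks reached a −log10 q of 5, which 1 of 2 KIF3C and 2 of 3 BICDL1 peaks did.

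**Figure D2:**
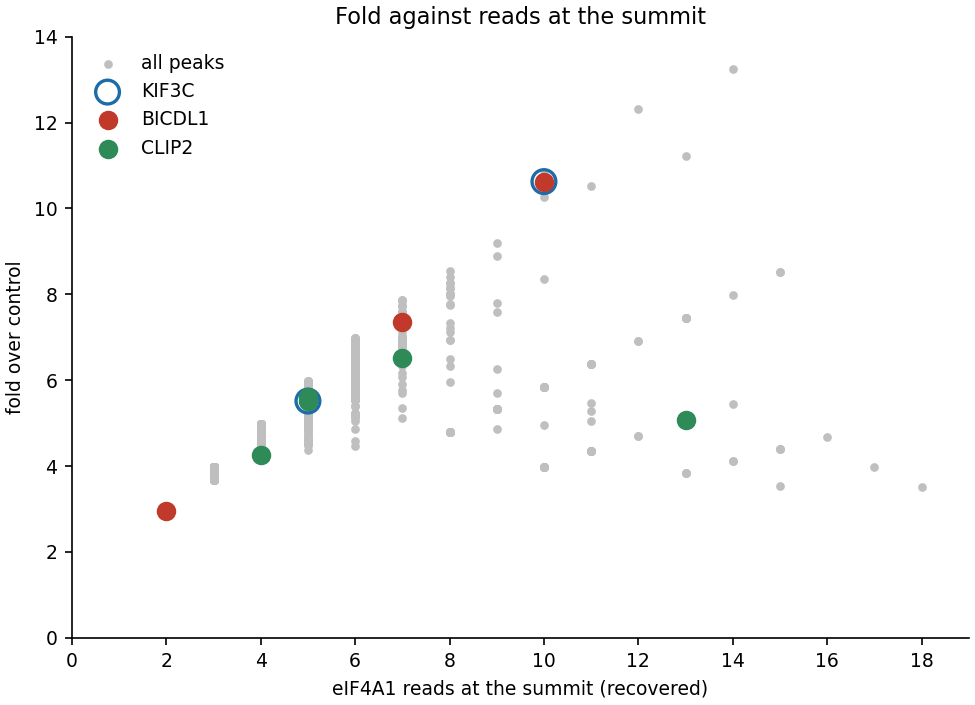
Fold over control (vertical axis) against eIF4A1 reads recovered at the summit (horizontal axis). Grey points are all 1920 peaks, the blue open circles KIF3C, red BICDL1 and green CLIP2, and points with equal values coincide. The KIF3C and BICDL1 peaks of 10 reads lie together at a fold of 10.6, while the CLIP2 peak of 13 reads lies at 5.07.

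Raising every background to the value of 1 control read at the summit shows how far the folds rest on an empty control. The fold of the KIF3C and BICDL1 peaks of 10 reads was then 5.85, and that of the CLIP2 peak of 7 reads 4.26. The CLIP2 peak of 13 reads kept 5.07, since its control reads already exceed that value. Under this setting the highest fold was 5.85 in KIF3C and BICDL1 and 5.07 in CLIP2, in place of 10.6 and 6.51. For the peaks of 10 reads, counting error in the eIF4A1 reads alone gives a fold of 5.60 to 18.7 at the deposited background. That range holds the value of 5.85.

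By class, 6 of the 10 peaks were promoter and 4 were 3' UTR, with 0 in the exon, intron or 5' UTR classes. Over all 1919 annotated peaks, 57.3% were promoter (exact binomial 95% interval 55.0 to 59.5) and 12.7% 3' UTR (interval 11.3 to 14.3). Exon, intron and 5' UTR classes held 20.0%, 4.95% and 0.782% of them. The promoter class means within 3 kb of any annotated transcript start. Measured from the 5' end of the RefSeq gene, 2 of the 6 promoter-class peaks lay within 3 kb, 1 in KIF3C and 1 in BICDL1. The other 4 lay 9.39 to 91.7 kb into BICDL1 or CLIP2. Over all promoter-class peaks inside their named gene, 36.5% lay within 3 kb of the RefSeq 5' end (interval 33.4 to 39.6).

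At the other end of the genes, 4 of the 10 peaks lay within 3 kb of the RefSeq 3' end, 3 in CLIP2 and 1 in KIF3C, and 0 in BICDL1. In all genes of at least 50 kb, a length that all 3 genes exceed, 9.31% of 612 inside peaks lay that close to the 3' end (interval 7.13 to 11.9) and 13.6% that close to the 5' end (interval 10.9 to 16.5). The 3 CLIP2 peaks there share 1 transcript end and are not independent, so no test was made. The remaining 4 peaks lay more than 3 kb from both ends.

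The outermost peaks of KIF3C and BICDL1 were far apart, and all 3 genes are long. Their RefSeq spans are 55.9 kb for KIF3C, 105 kb for BICDL1 and 117 kb for CLIP2, against a median of 36.4 kb over the 1370 protein-coding genes with a peak and 24.1 kb over all 20056. The outermost summits stood 51.8 kb apart in KIF3C, which is 92.7% of the gene, 91.3 kb apart in BICDL1 (86.8%) and 29.5 kb apart in CLIP2 (25.3%). The median over the 172 genes with 2 or more peaks inside them was 8.73 kb. BICDL1 stood 11th, KIF3C 26th and CLIP2 40th of these 172 by that distance, while by gene length they stood 44th, 71st and 41st. Neighbouring peaks were within 2 kb of each other in 3 of 7 pairs, all in CLIP2, against 38.2% of 251 pairs over all genes.

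**Figure D3:**
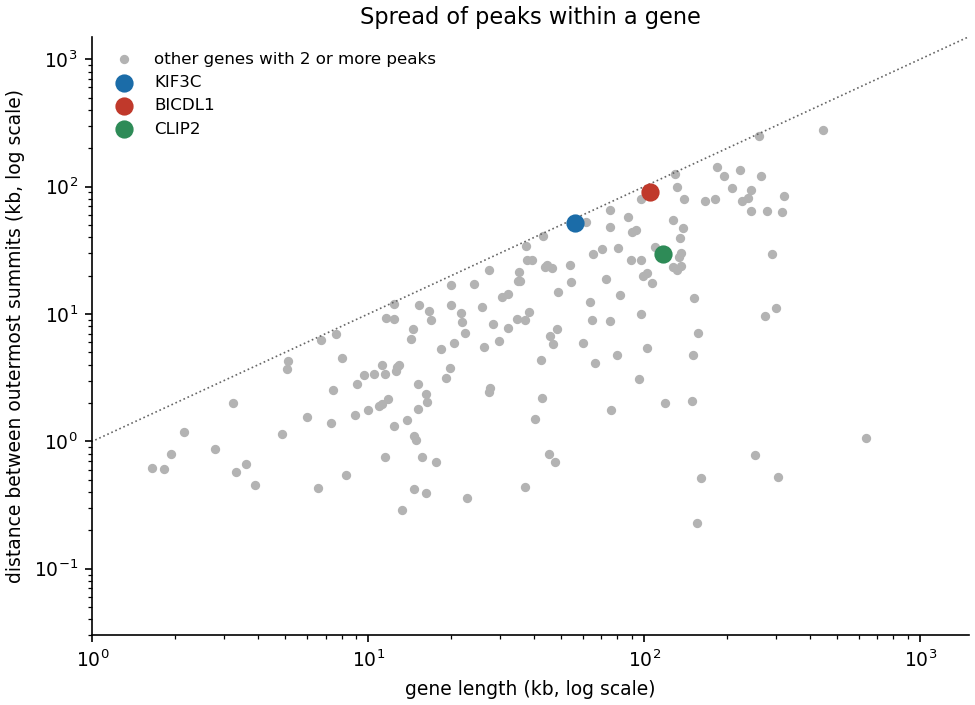
Distance between the outermost summits of a gene (vertical axis, kb, log scale) against gene length (horizontal axis, kb, log scale) for the 172 genes with 2 or more peaks inside them. The dotted line marks a distance equal to the gene length; KIF3C and BICDL1 lie close to it, and CLIP2 lies below it at 29.5 kb of 117 kb.

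By number of peaks, 0.987% of protein-coding genes had at least 2, as each of the 3 genes did. Among the 1540 gene IDs with a peak the share was 13.8%. The 3 genes were chosen by fold and number of peaks, so their counts and the fold comparisons below are descriptions. Peaks called intergenic are left out of these counts. Among the 162 other genes with 2 peaks, the highest best folds were those of MYO16-AS1 (8.51), QRFP (8.35), TAOK2 (8.01), and FAM89B and LTBP3 (7.73 each), all below the 10.6 of KIF3C. The peaks listed under MYO16-AS1 and QRFP lie outside those genes, and an intergenic peak listed under MYO16-AS1 had a fold of 11.2. Among the 35 other genes with 3 peaks, those with high best folds included ACLY (8.51), ARRDC1 (8.41), SRGAP2 (7.60) and GPX4 (6.91), below the 10.6 of BICDL1. CLIP2 shared its count of 5 with BCL6 (best fold 6.23) and the U1 RNA gene RNVU1-18 (5.70), of whose peaks only 1 lies inside it. BCL6 spreads its peaks over 17136 bases, CLIP2 over 29489. Likeness here means only an equal count of peaks in 1 pair of libraries.

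Of 11 close relatives and partners of the 3 genes, 3 had a peak (27.3%, interval 6.02 to 61.0). That interval includes the 6.83% of all protein-coding genes, and relatives without a peak were named after their values were seen. Of the kinesin-2 subunits, KIF3A, the partner of KIF3C, and KIF3B had 0, and KIFAP3, the subunit that links the KIF3A and KIF3B pair to cargo, had 1 peak in the 5' UTR class (3 reads, fold 3.99). Of the BICD family, BICD1 and BICDL2 had 0 and BICD2, a dynein activator, had 1 exon peak (4 reads, interval 1.09 to 10.2, fold 4.67). KIF1C and RAB6A, a motor and a small GTPase that bind BICDL1, had 0. Of the CLIP family, CLIP1 and CLIP3 had 0 and CLIP4 had 1 peak in the 3' UTR class (3 reads, fold 3.95). A gene without a peak may still have been bound below what this depth could show.

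Across 8 lists of microtubule genes, 18 of 147 genes had a peak (12.2%, interval 7.42 to 18.7), against a background of 6.83% of protein-coding genes. Without KIF3C, BICDL1 and CLIP2 the count was 15 of 144 (10.4%, interval 5.95 to 16.6), an interval that includes the background. The listed genes were also longer, with a median of 54.3 kb against 24.1 kb, and the part of length in the count was not tested. Median best fold was 3.98 in the 18 genes and 3.99 in all protein-coding genes with a peak. The other 15 genes had folds of 2.95 to 4.67 on 2 to 5 reads, below the best peak of each of the 3 genes. The 3 genes were chosen by fold and number of peaks, so this order follows from the choice.

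Among motors, 2 of 44 kinesin heavy chain genes had a peak (4.55%), KIF3C and KIF21B, a kinesin that also restrains microtubule growth (3 reads, fold 3.93). Kinesin light chains and associated subunits had 2 of 6 (33.3%, interval 4.33 to 77.7), KIFAP3 and the light chain gene KLC3 (3 reads, fold 3.97). Cytoplasmic dynein had 1 of 19, the intermediate chain gene DYNC1I1, with an intronic peak of 2 reads (fold 2.99). Dynactin had 1 of 12, DCTN6, and the summits of its 2 peaks lie outside the gene.

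Motor cargo adaptors had 5 of 19 (26.3%), or 4 of the 18 besides BICDL1 (22.2%, interval 6.41 to 47.6), which includes the 6.83% of all protein-coding genes. They were BICDL1, BICD2, HAP1, which links huntingtin to motors (3 reads, fold 3.80), and the JNK scaffold genes MAPK8IP1 (2 reads, fold 2.99) and SPAG9 (2 reads, fold 2.95). Their median length of 74.3 kb was above that of all protein-coding genes. Plus-end proteins had 3 of 15, CLIP2, CLIP4 and the spectraplakin gene DST (4 reads, fold 4.19). Other microtubule-associated proteins had 3 of 18, the neuronal MAP2 (3 reads, fold 3.93), MAP1S (4 reads, fold 4.60) and CAMSAP3, which caps minus ends and had 3 peaks of up to fold 3.94. Tubulins had 1 of 14, TUBB4A (5 reads, fold 4.50). By RefSeq span instead of the authors' naming, MAP4, MAPRE3, DYNLRB1 and TUBG1 are added and DCTN6 is lost, which makes 21 of 147. The best folds inside the added genes were 5.70 in MAP4 (6 reads), 4.99 in DYNLRB1 (4 reads), 4.95 in TUBG1 (5 reads) and 3.92 in MAPRE3 (3 reads).

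**Figure D4:**
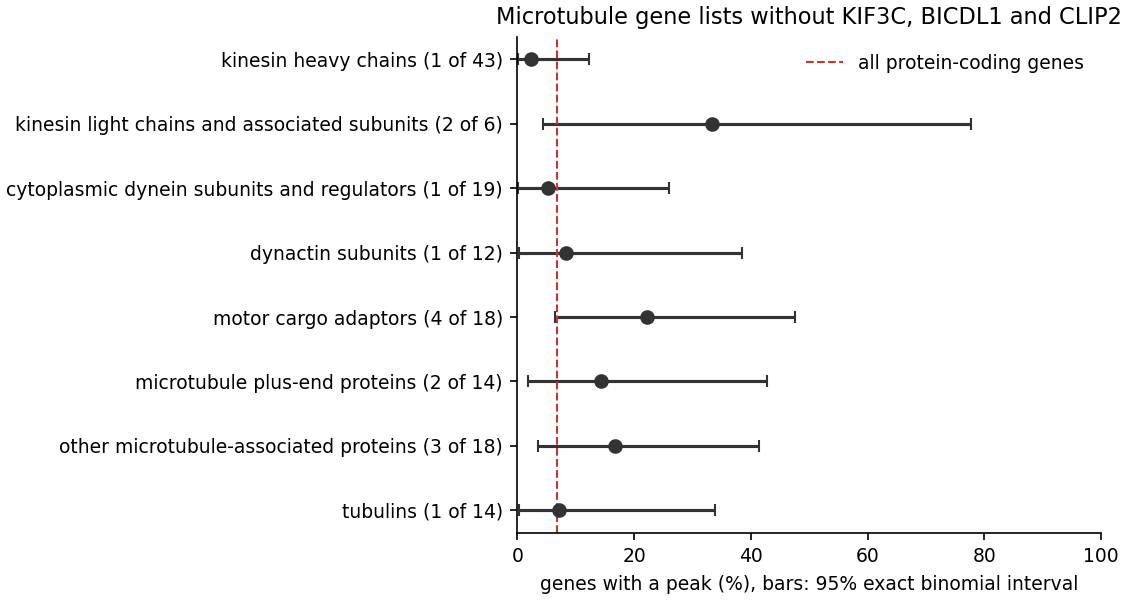
Percent of the genes of each microtubule list, without KIF3C, BICDL1 and CLIP2, that had a peak (points) with exact binomial 95% intervals (bars); counts stand beside each name and the dashed line marks the 6.83% of all protein-coding genes. The intervals of all 8 lists include the dashed line.

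The share of genes around the 3 loci that had a peak was 4 of 43 (9.30%, interval 2.59 to 22.1), against 6.83% of all protein-coding genes. Within 500 kb, 1 of 10 protein-coding neighbours of KIF3C had one (ASXL2, 2 reads, fold 2.95), 2 of 20 of BICDL1 (GCN1, 2 reads, fold 2.95, and RNF10, 5 reads, fold 5.70) and 1 of 13 of CLIP2 (GTF2IRD1, 3 reads, fold 3.93). By RefSeq span the count was 4 of 20 at BICDL1 and 6 of 43 in all. EIF4H, which encodes a cofactor of eIF4A helicases and lies near CLIP2, had 0.

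The start regions of KIF3C and CLIP2 are in the RefSeq promoter table (GRCh38.p14), which spans 250 bases before to 50 after each gene's 5' end. No peak of either gene overlaps its window. The motif GGCGGCGGC was searched because runs of GGC are known from leaders of mRNAs that depend on eIF4A. It occurs in the initial 50 transcribed bases of KIF3C, on the transcribed strand, from base 24. It is shown here, in capitals, within 30 bases of the KIF3C leader (bases 15 to 44, chr2:25982454-25982483, minus strand), to show the kind of sequence meant:
KIF3C: ttctccagtGGCGGCGGCggggaaggcgga
The motif was found in 2.99% of the same 50 bases of 15843 protein-coding genes and in 5.02% of those of the 1115 genes with a peak that the table holds. The corresponding bases of CLIP2 do not contain it, nor its shorter form GGCGGC, which overlaps it and occurs in 12.6% of genes. These 50 bases were 62.0% G and C in KIF3C and 74.0% in CLIP2, against medians of 64.0% over all genes and 68.0% over genes with a peak. A match is only a description of the sequence and not a site of binding.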

How the data were processed

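RNA immunoprecipitation sequencing of DU145 cells gave 1 eIF4A1 and 1 IgG library, grouped by the antibody label. Tools named without version or order in the submitters' processing notes are MACS2, ChIPseeker, BWA, STAR, Salmon, Picard and DESeq2, and the builds named there are hg38, GRCh38 and hg19. Coordinates are read as hg38, 1-based.

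The peak track deposited for the IgG sample holds peaks named after the eIF4A1 library. Per the file headers and narrowPeak column order it gives a score (the whole part of 10 times −log10 q), a linear ratio (the fold over control), −log10 p and −log10 q. No label or header says which library served as its control. The authors' annotated table gives −log10 q, class and nearest gene, and its 1919 peaks match the track in summit and −log10 q. Symbols came from RefSeq through the gene ID (1539 of 1540 matched).

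Reads were recovered by solving fold = (reads + 1)/(background + 1) together with the upper-tail Poisson probability, as MACS2 defines them. In all 1920 peaks exactly 1 whole read number lay within the rounding of the deposited values. At a looser tolerance of 0.01 in −log10 p, 22 peaks had a second whole solution, 3 of them in the 3 genes. In simulation 100% of 500 peaks were recovered, from values rounded more finely than some deposited ones. Every background was a common floor of 0.003 or, within 0.1 of a step, a whole number of steps of 0.00176. These steps were read as 1 control read in 10 kb, 0.0176 as 1 in 1 kb and 0.88 as 1 at the summit. The formula and windows are not stated in the files.

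The 3 genes and all lists were chosen with earlier results of these data known. Named are the 3 genes with every peak, listed microtubule genes with a peak, up to 5 genes with the same number of peaks by best fold, and neighbours within 500 kb with a peak. A gene that this rule names is not reported here. KIF3A, KIF3B, KIF1C, RAB6A, other relatives, EIF4H and genes added by span were named after their values were seen, and the GGC motif was chosen then too. With 1 library per group no test between groups was made. Intervals are exact Poisson for reads and exact Clopper-Pearson for shares, at 95%. Alternatives were stricter −log10 q, fold and read limits, RefSeq spans, merged peaks, no promoter class, a raised background and shares by bases. Python 3.11.15 and scipy 1.17.1 were used.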

Additional observations from a re-analysis of the deposited data

How the results depend on the processing

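The count of 10 peaks in KIF3C, BICDL1 and CLIP2 was the same by RefSeq span and after merging peaks within 100 bases, and 8 with a fold of at least 5 or at least 5 reads. Requiring a −log10 q of at least 5 gave 3 peaks, which leaves 0 in CLIP2, and leaving out the promoter class gave 4, which leaves 0 in BICDL1. The 18 microtubule genes with a peak became 4 under that −log10 q limit, 3 with a fold of at least 5, 4 when 5 reads were required and 9 without the promoter class. Under the same settings the 1370 protein-coding genes with a peak became 422, 331, 382 and 586. The 3 genes left by the fold limit were KIF3C, BICDL1 and CLIP2, which were chosen by fold. These settings keep fewer peaks by construction. The 6 peaks near an annotated start became 2 when measured from the RefSeq 5' end. By bases, 76.0% of the member peaks were in the promoter class, against 60.0% by number. A single promoter-class peak, that of KIF3C, holds 310 of the 780 bases covered. Of the values for single genes, for single lists and for all protein-coding genes, 38 moved by more than 1.5 times and 34 did not. With a single library per antibody, none could be left out. No paired analysis was possible because the groups hold 1 library each. Folds rest on 2 to 13 reads, which limits how far peaks can be ordered.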
